A study of Mus musculus with 18 samples.

Results

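The regions described here were 1541 of the 42403 GATA6 binding regions of the deposited table (3.63%), chosen by the authors' classes of each region. GATA6 binding had to be Late and SOX17 bound. A peak of OCT4, SOX2 or ESRRB, the factors of pluripotency grouped as PTFs, was not allowed, and the histone state in untreated embryonic stem (ES) cells had to be naive. They are called Late SOX17-bound naive regions below. The series holds 18 MNase-seq libraries of KH2 mouse ES cells, 3 at d0 without treatment and 3 after each of 8, 16, 24, 48 and 96 h of doxycycline (Dox). All of these cells, d0 included, carry the Dox-inducible Gata6 cassette on a C57BL/6 x 129/Sv background and grow with LIF on feeder fibroblasts, and the methods name 2 clones, G6.1 and G6.3. Dox was given at 1 ug/mL. The table gives no value of an MNase library. It gives the authors' ChIP-seq and ATAC-seq signal of each region, as 1 value per time point of the same induction and for XEN cells, a stem cell line of the extra-embryonic endoderm. ChIP-seq signal is the number of reads over the whole region after scaling to library size, ATAC-seq signal counts fragments under 100 bp on a library-size corrected scale that is not stated further, and neither is divided by region width. With 1 value per time point there is no spread between cultures, so quartiles below describe the spread over regions. The values are from bulk cells, in which more cells with a bound region and more binding per cell cannot be told apart. The table has no expression values, and the identity of the cells was not checked here.

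GATA6 is a zinc-finger transcription factor that drives primitive endoderm (PrE), the lineage that forms the yolk sac and separates from the pluripotent epiblast in the early embryo. SOX17 is a high mobility group box factor of the endoderm that acts with it. OCT4 and SOX2 hold ES cells in the pluripotent state. Naive chromatin is the state of the histone clustering that carries little of any mark, neither the H3K4me1 and H3K27ac of enhancers nor the H3K27me3 or H3K9me3 of heterochromatin.

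Before the values, sequences of a few of these regions show what the binding regions hold. The first are the 2 regions with the largest summed score of GATA6 and SOX17 motifs, among 206 regions in which both motifs lay within 50 bp of each other without overlap and within 100 bp of the GATA6 summit. All sequences are the plus strand of GRCm38 (mm10), and capitals mark the best GATA6 motif (13 bp, mostly around GATAA or its complement TTATC) and the best SOX17 motif (9 bp, mostly around ATTGT or its complement ACAAT). Close pair 1 is at chr5:38939601-38939698, between genes and 62.8 kb from the start of Clnk. Close pair 2 is at chr14:60082517-60082593, in an intron of Atp8a2.
Close pair 1: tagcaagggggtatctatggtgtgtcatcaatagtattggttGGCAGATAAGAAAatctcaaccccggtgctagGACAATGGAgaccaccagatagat
Close pair 2: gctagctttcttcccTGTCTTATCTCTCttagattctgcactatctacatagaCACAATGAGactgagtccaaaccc
In close pair 1 the GATA6 motif scored 15.17, the highest of these regions, and lay 19 bases from a SOX17 motif scored 12.34. The motifs were 25 bases apart in close pair 2. SOX17 signal at close pair 1 was 0.432 at d0, 0.634 at 8 h, 0.692 at 24 h, 0.631 at 48 h, 6.89 at 96 h and 12.0 in XEN cells. GATA6 signal there was 0.492 at 8 h, 0.784 at 48 h, 5.28 at 96 h and 13.2 in XEN cells. Both factors changed little up to 48 h and were high at 96 h.

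The regions in the next sequences were shown for their SOX17 motif, their gain in accessibility or the PrE gene beside them. The first of the 28 regions with the highest SOX17 score (12.83), in order along the genome, is shown at chr1:35468892-35468940. The region with the largest gain in ATAC signal is shown at chr1:151223353-151223516. The region 4.58 kb from the start of Nid1, which encodes a basement membrane protein, is shown at chr13:13432820-13433077.
Highest SOX17 score: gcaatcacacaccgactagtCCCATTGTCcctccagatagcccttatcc
Largest ATAC gain: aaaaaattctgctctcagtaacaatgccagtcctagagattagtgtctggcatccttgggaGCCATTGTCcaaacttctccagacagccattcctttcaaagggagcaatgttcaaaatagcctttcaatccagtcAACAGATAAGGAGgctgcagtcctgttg
Nid1: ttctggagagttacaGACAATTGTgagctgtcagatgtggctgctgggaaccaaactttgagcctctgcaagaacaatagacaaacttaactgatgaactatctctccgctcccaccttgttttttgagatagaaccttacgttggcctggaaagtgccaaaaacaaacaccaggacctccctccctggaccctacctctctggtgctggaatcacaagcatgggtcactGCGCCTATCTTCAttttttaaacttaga
The letters differed between regions more than the core did. Best SOX17 motifs contained ATTGT in 90.9% of the 1346 regions that had one (95% Wilson interval 89.2 to 92.3), against 81.7% over all GATA6 regions with a SOX17 motif (81.2 to 82.1). Among the classes compared below, the share was 87.7% (86.0 to 89.2) in Late SOX17-bound regions of facultative heterochromatin. Late naive regions without SOX17 had 85.0% (82.4 to 87.3). Best SOX17 motifs of the Late SOX17-bound naive regions took 173 of the 210 different words found in the whole table. The most frequent word, TTCATTGTT, made up 2.75% (37 regions). Best GATA6 motifs contained GATAA in 75.2% of 1425 regions (72.8 to 77.3), against 77.0% over all regions (76.6 to 77.4).

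The chromatin marks that placed the regions in the naive state were low throughout. The median of H3K4me1, in the authors' signal per library size and region width, was 0.342 against 1.0 over all GATA6 regions, and 99.8% of the Late SOX17-bound naive regions lay below the median of all. H3K27ac had a median of 0.433 against 0.894, and DNase sensitivity 0.325 against 0.71. The marks of heterochromatin were low as well, at 0.435 against 0.6 for H3K27me3 and 0.511 against 0.606 for H3K9me3, with 82.4% and 73.3% of regions below the median of all. The histone marks chose the state, and all of these values are given as description. By the authors' class of ATAC-seq signal at d0, which the choice did not use, 1528 of 1541 regions (99.2%) were closed, against 61.3% over all GATA6 regions and 99.1% and 98.0% in the classes compared below.

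**Figure D1:**
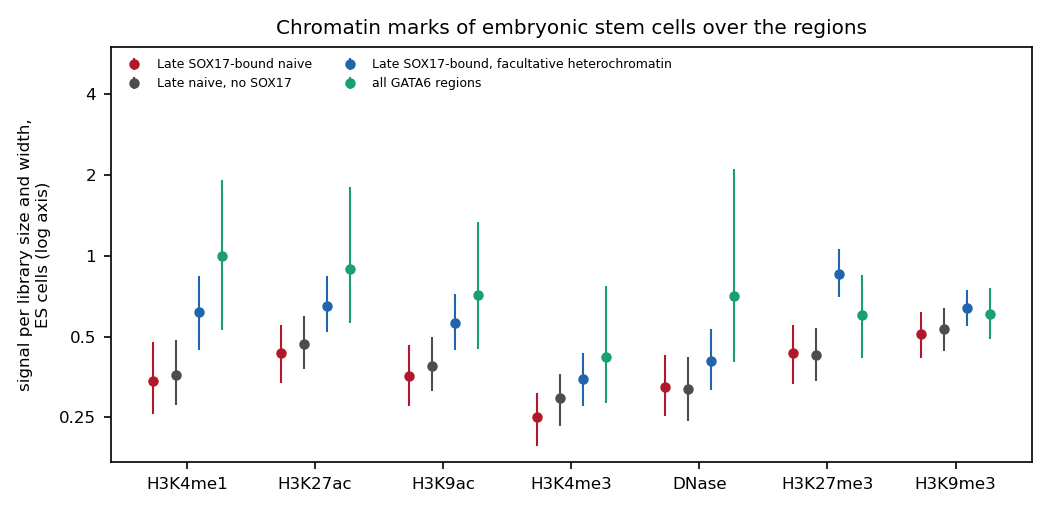
Chromatin marks of untreated ES cells over the Late SOX17-bound naive regions, over 2 compared classes and over all GATA6 regions, as the authors' signal per library size and width on a log axis, with points for medians and bars for quartiles over regions. The Late SOX17-bound naive regions had a median of 0.342 for H3K4me1 and 0.25 for H3K4me3, below the medians of all regions of 1.0 and 0.42.

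The regions came from 14243 Late regions, of which 12558 had no PTF and 6144 of these were bound by SOX17. In that set 25.1% were naive, and facultative heterochromatin was the only state with more (2044 regions, 33.3%). Comparisons below are with these 2044 Late SOX17-bound regions of facultative heterochromatin, which differ in the histone state, and with the 1171 Late naive regions without SOX17, which differ in the SOX17 class. Regions are not replicates of a condition. Tests over them are two-sided Fisher's exact tests on counts of regions, with odds ratios on the log2 scale, 95% Woolf intervals and p-values adjusted over 21 tests by the Benjamini-Hochberg procedure, and intervals cover counting error only.

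GATA6 arrived slowly at these regions and most of the signal came after 48 h. Median GATA6 signal was 0.391 at 8 h (quartiles 0.261 to 0.608), 0.523 at 16 h, 0.680 at 24 h, 0.864 at 48 h (0.582 to 1.37) and 2.52 at 96 h (1.66 to 4.0). In XEN cells it was 3.39 (1.74 to 6.36). The median ratio of 96 h over 48 h was 3.0, and the signal was highest at 96 h, among the Dox time points, in 97.7% of regions. SOX17 ran beside it, at a median of 0.329 at d0, 0.350 at 8 h, 0.659 at 24 h, 0.868 at 48 h, 2.74 at 96 h and 2.48 in XEN cells. Input signal over the same regions was between 0.261 and 0.457 at all time points, and 0.448 in XEN cells. At 96 h GATA6 stood at a median of 6.36 times the input and SOX17 at 6.83 times. Input was lowest at 24 h (0.261), so ratios to input at that time are raised by the input itself. GATA6 and SOX17 signal chose these regions, and both courses are description.

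Accessibility, which did not choose the regions, rose as well, and its rise was already clear at 48 h. Median ATAC signal was 0.0349 at d0 (quartiles 0.0245 to 0.0508), 0.0408 at 8 h, 0.0363 at 16 h and 0.0438 at 24 h. It was 0.0955 at 48 h (0.0549 to 0.176), 0.155 at 96 h (0.0903 to 0.262) and 0.167 in XEN cells. The signal at 96 h was at least 2 times that at d0 in 1406 regions (91.2%, 95% Wilson interval 89.7 to 92.6), where over all GATA6 regions the share was 41.2%. At 24 h the same count was 107 (6.94%) and at 48 h it was 1060 (68.8%), where over all regions the shares were 12.1% and 47.4%. The median ratio of 96 h over d0 was 4.44 (quartiles 2.99 to 6.37), the same 4.44 in the Late SOX17-bound regions of facultative heterochromatin and 2.17 in the Late naive regions without SOX17. The latter had a share of 57.3% at 2 times or more (54.4 to 60.1). In XEN cells the ratio over d0 was 4.79 in the Late SOX17-bound naive regions and 3.92 in the Late naive regions without SOX17. No replicate values of ATAC signal were at hand, so no test was made of these ratios.

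**Figure D2:**
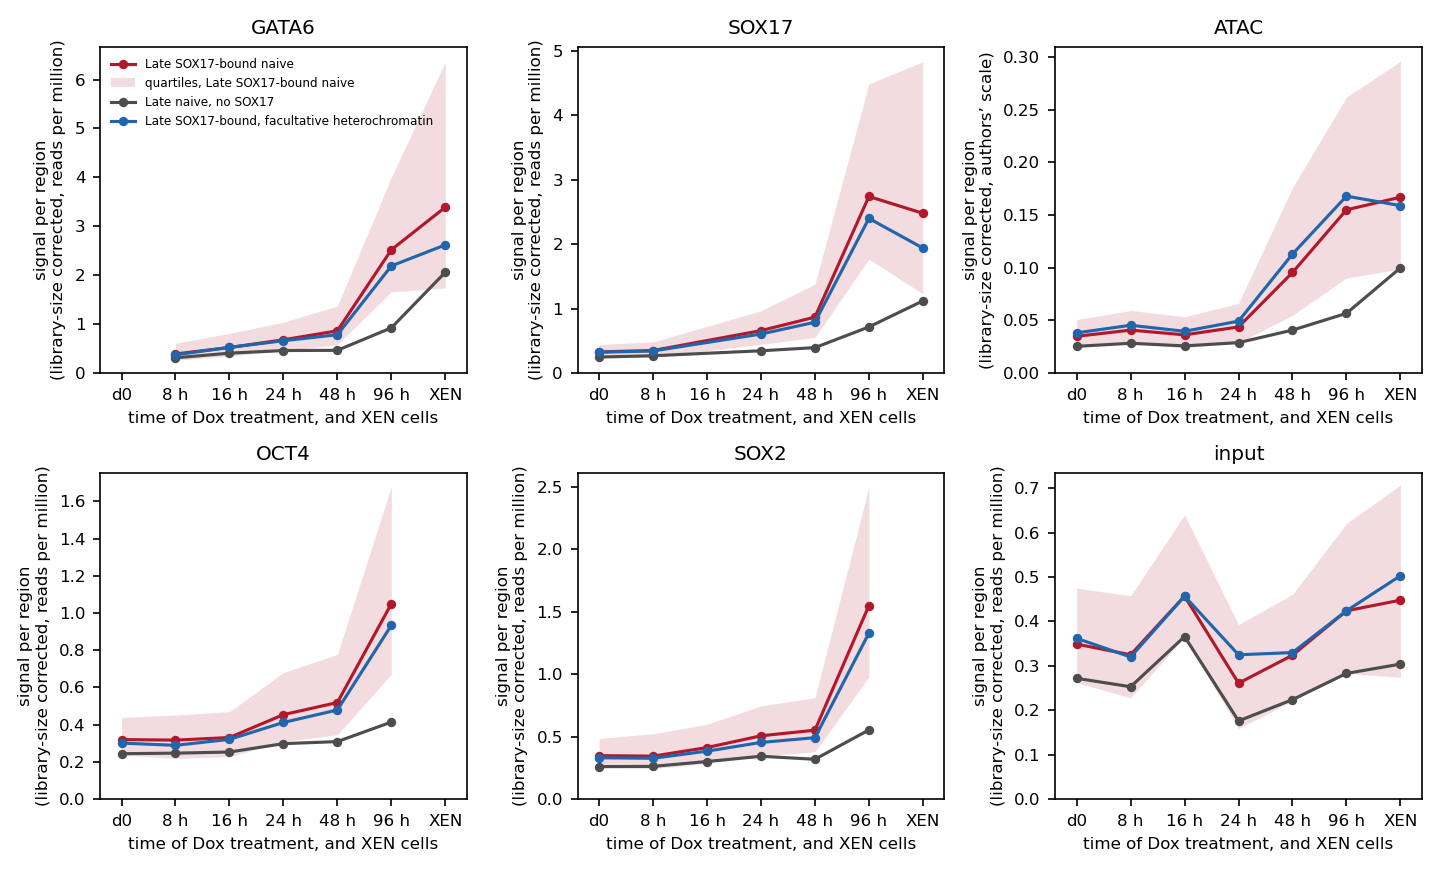
Signal per region at d0, after 8 to 96 h of Dox and in XEN cells for GATA6, SOX17, ATAC, OCT4, SOX2 and input, in reads per region scaled to library size, with lines for medians over regions and a band for the quartiles of the Late SOX17-bound naive regions. Their median GATA6 signal was 0.864 at 48 h and 2.52 at 96 h, and their median ATAC signal 0.0955 and 0.155, above the Late naive regions without SOX17 at each of these times.

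OCT4 and SOX2, for which no peak was allowed in these regions, nevertheless gained signal. Median SOX2 signal was 0.348 at d0, 0.344 at 8 h, 0.413 at 16 h, 0.507 at 24 h, 0.552 at 48 h and 1.55 at 96 h. Median OCT4 signal was 0.320 at d0, 0.317 at 8 h, 0.331 at 16 h, 0.454 at 24 h, 0.519 at 48 h and 1.05 at 96 h. At d0 the signal was at least 2 times the input in 3.18% of regions for SOX2 and in 0.649% for OCT4. At 96 h it was at least 2 times the input in 93.1% for SOX2 (95% Wilson interval 91.7 to 94.2) and in 69.4% for OCT4 (67.1 to 71.7). Over all GATA6 regions these shares were 42.7% and 34.5% at d0 and 47.0% and 39.3% at 96 h, and the Late SOX17-bound regions of facultative heterochromatin reached 85.7% and 57.1% at 96 h. All GATA6 regions include those with OCT4 or SOX2 peaks, which the choice excluded. The low shares at d0 therefore follow in part from the choice. The median ratio to input at 96 h was 3.78 for SOX2 and 2.54 for OCT4, against 1.98 and 1.41 in the Late naive regions without SOX2, OCT4 or SOX17 peaks. Absence of a called peak was thus not absence of signal at 96 h. Across the 1541 regions, SOX2 and GATA6 signal at 96 h, both per kb of region, had a Spearman correlation of 0.76. GATA6 and SOX17 signal per kb had one of 0.68 and GATA6 and ATAC signal per kb one of 0.53. These points share their libraries and the local read depth, and the correlations are description.

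The pattern in XEN cells did not rank the regions as 96 h of Dox did. GATA6 signal per kb at 96 h and in XEN cells had a Spearman correlation of 0.15 across the 1541 regions, and ATAC signal per kb one of 0.32. GATA6 signal in XEN cells exceeded that at 96 h in 65.2% of regions (62.8 to 67.6), and ATAC signal did so in 55.4% (52.9 to 57.9). The shares were 48.5% and 45.4% over all GATA6 regions and 85.1% and 77.2% in the Late naive regions without SOX17. GATA6 signal over time set the Late class, and SOX17 peaks separated the compared classes. The correlation and shares of GATA6 signal therefore depend in part on the choice and are description. Single regions went both ways. The region with the largest ATAC gain, at chr1:151222912-151224338 (1426 bp wide, 8 GATA6 and 7 SOX17 motifs), had ATAC signal of 0.148 at d0, 0.201 at 24 h, 1.07 at 48 h, 1.47 at 96 h and 0.913 in XEN cells. The second, at chr17:78306253-78306880 in an intron of Crim1, had 0.0605 at d0, 0.0824 at 24 h, 0.508 at 48 h, 1.17 at 96 h and 1.22 in XEN cells, a 19.4-fold rise by 96 h, although it held no SOX17 motif. A region in an intron of the long noncoding RNA Gm29865, at chr3:131910362-131911499, 174 kb from the start of the Wnt antagonist gene Dkk2, rose 15.9-fold, from 0.0631 to 1.0. The fifth, at chr9:24859089-24860452 and 85.7 kb from the start of the T-box factor gene Tbx20, had 0.0900 at d0, 0.688 at 48 h and 0.986 at 96 h but 0.229 in XEN cells. GATA6 signal there was 11.3 at 96 h and 2.32 in XEN cells, and SOX17 signal 11.6 and 0.992. These regions were named for their ATAC gain, which is therefore no result.

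The regions were wider than both compared classes. Their mean width was 629.5 bp (SD 283), against 465 bp in the Late naive regions without SOX17 (a difference of 164 bp, 95% interval 146 to 183) and 505 bp in the Late SOX17-bound regions of facultative heterochromatin (125 bp, 107 to 142). Both differences had the same direction on 20 of 20 chromosomes. A wider region holds more sequence in which to find a motif, so comparisons within 10 bins of width are given where they change a result.

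GATA6 and SOX17 motifs were common in these regions. A GATA6 motif was present in 1444 regions (93.7%, 95% Wilson interval 92.4 to 94.8) and a SOX17 motif in 1346 (87.3%, 85.6 to 88.9). Both were present in 1266 (82.2%) and neither in 17 (1.1%). Over all GATA6 regions the shares were 89.7% for GATA6, 69.2% for SOX17 and 62.6% for both. In the window of 100 bp to each side of the summit, 79.5% had a GATA6 motif and 66.6% a SOX17 motif. In 2949 windows of the same length 3 kb away, outside GATA6 regions, the shares were 35.4% and 31.7%. The summit windows of all GATA6 regions had 77.1% and 43.1%. For the OCT4:SOX2 composite motif the summit windows held no more than their surroundings, with 38.5% against 41.0%, and for the ESRRB motif 11.4% against 11.7%.

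The SOX17 motif was more frequent than in both compared classes, with a smaller difference from facultative heterochromatin than from the naive regions without SOX17. It was present in 68.3% of the Late naive regions without SOX17 (800 of 1171), a log2 odds ratio of 1.68 (1.40 to 1.96, adjusted p = 2.20e-32, Fisher's exact test), in the same direction on 20 of 20 chromosomes. Within bins of width the log2 odds ratio was 1.26 (0.97 to 1.56). Against the Late SOX17-bound regions of facultative heterochromatin, which had the motif in 79.5% (1625 of 2044), it was 0.83 (0.57 to 1.10, adjusted p = 2.35e-09, Fisher's exact test) and 0.51 within bins of width (0.23 to 0.79). In the summit window the latter was 0.25 (0.05 to 0.45, adjusted p = 0.0261, Fisher's exact test), with 66.6% against 62.6%, and the Late SOX17-bound regions of constitutive heterochromatin had 69.6%. The best SOX17 motif also scored higher than in the Late naive regions without SOX17, at 10.19 (SD 1.54) against 9.67 (SD 1.54), a difference of 0.52 (0.38 to 0.65) that was 0.21 for the mean score of all SOX17 motifs of a region. Against facultative heterochromatin, where the mean was 10.10, the difference was 0.09 (-0.03 to 0.20). SOX17 motifs per kb were 3.37 in the Late SOX17-bound naive regions, 2.71 in the Late naive regions without SOX17 and 3.26 in facultative heterochromatin.

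The GATA6 motif behaved otherwise. It was as frequent in the Late naive regions without SOX17, with 93.7% in both classes and a log2 odds ratio of 0.01 (-0.44 to 0.46, adjusted p = 1.0, Fisher's exact test), which turned to -0.62 (-1.10 to -0.13) within bins of width. GATA6 motifs per kb were 4.60 against 6.03, a difference of -1.44 (-1.70 to -1.17) that was -0.89 within bins of width. The naive regions that SOX17 did not bind thus held more GATA6 motifs per kb and fewer SOX17 motifs. Facultative heterochromatin had a GATA6 motif in 88.4%, a log2 odds ratio of 0.97 in favour of the Late SOX17-bound naive regions (0.62 to 1.33, adjusted p = 1.11e-07, Fisher's exact test). It was 0.52 within bins of width (0.15 to 0.89) and 0.22 in the summit window, where it did not pass the test (adjusted p = 0.117, Fisher's exact test). Best GATA6 motifs scored 10.21 on average in these regions, 10.37 in the naive regions without SOX17 and 9.91 in facultative heterochromatin. Across regions the score of the best motif and the signal at 96 h per kb went together little, with a Spearman correlation of 0.01 for GATA6 (1444 regions) and 0.07 for SOX17 (1346 regions).

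The OCT4:SOX2 and ESRRB motifs were more frequent than in the naive regions without SOX17, but not at equal width, and the OCT4:SOX2 motif was more frequent than in facultative heterochromatin also at equal width. An OCT4:SOX2 motif was present in 76.9% of these regions and in 69.8% of the Late naive regions without SOX17, a log2 odds ratio of 0.53 (0.28 to 0.78, adjusted p = 7.02e-05, Fisher's exact test). Within bins of width it was -0.07 (-0.34 to 0.20), so that this difference did not hold at equal width. An ESRRB motif was present in 31.0% and 23.7%, a log2 odds ratio of 0.53 (adjusted p = 6.23e-05, Fisher's exact test), and 0.09 within bins of width (-0.17 to 0.36). Against facultative heterochromatin the OCT4:SOX2 motif had a log2 odds ratio of 0.96 (0.75 to 1.17, adjusted p = 4.13e-18, Fisher's exact test) and of 0.57 within bins of width (0.34 to 0.80). The ESRRB motif had one of 0.23 (0.02 to 0.44, adjusted p = 0.0514, Fisher's exact test), which was -0.13 within bins of width. The share of G and C in the summit window was 40.9%, against 40.2% and 44.0% in the compared classes, the latter a difference of -3.09 percentage points (-3.38 to -2.80) with the same direction on 20 of 20 chromosomes.

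Best GATA6 and SOX17 motifs gathered at the summit. Counted per kb of region sequence at that distance, best GATA6 motifs fell from 4.41 within 25 bp of the summit to 1.96 at 50 to 100 bp and 0.89 at 100 to 200 bp. Best SOX17 motifs fell from 3.37 through 1.85 to 0.926, while best OCT4:SOX2 motifs stayed at 1.34, 1.27 and 1.29. The median distance from the summit was 66 bp for GATA6 and 78.5 bp for SOX17, against 155 bp for OCT4:SOX2 and 142 bp for ESRRB. Of the regions with a GATA6 motif, 41.8% had the best one at most 50 bp from the summit, a smaller share than the 52.4% of the Late naive regions without SOX17 (log2 odds ratio -0.62, -0.84 to -0.39, adjusted p = 4.20e-07, Fisher's exact test) and the 50.8% of facultative heterochromatin (-0.52, -0.72 to -0.32, adjusted p = 1.09e-06, Fisher's exact test). Within bins of width the first of these was -0.21 (-0.46 to 0.03) and the second -0.25 (-0.46 to -0.04). The best SOX17 motif lay within 50 bp in 36.7%, against 30.6% of the Late naive regions without SOX17, a log2 odds ratio of 0.39 (0.12 to 0.66, adjusted p = 0.00675, Fisher's exact test) that was 0.84 within bins of width (0.54 to 1.13) and 0.27 among motifs scored 9 or higher, where it did not pass the test (adjusted p = 0.15, Fisher's exact test). Against facultative heterochromatin, with 44.0%, it was -0.44 (-0.65 to -0.23, adjusted p = 1.13e-04, Fisher's exact test) and -0.10 within bins of width (-0.33 to 0.13).

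**Figure D3:**
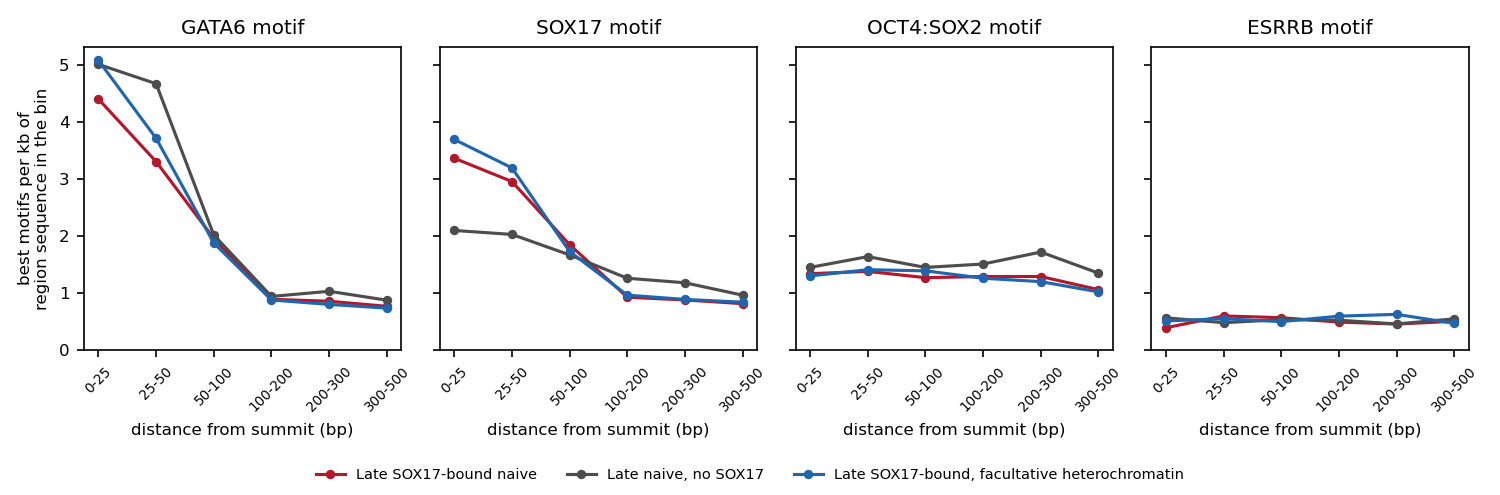
Number of best GATA6, SOX17, OCT4:SOX2 and ESRRB motifs per kb of region sequence against their distance from the GATA6 summit in bp, for the Late SOX17-bound naive regions and the 2 compared classes. In the Late SOX17-bound naive regions best GATA6 motifs fell from 4.41 to 0.89 per kb and best SOX17 motifs from 3.37 to 0.926 per kb between the innermost bin and 100 to 200 bp, while the other motifs showed no peak at the summit.

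The spacing of the motifs varied widely, with a median of 134 bp between their centres (quartiles 57 to 269). Of the 1266 regions with both motifs, the best motifs overlapped in 41 (3.24%, 2.40 to 4.36) and had 0 to 50 free bases between them in 305 (24.1%). In those 305 pairs both motifs were on the same strand in 46.2% (40.7 to 51.8), and SOX17 lay downstream of GATA6 in 43.0%. The centres of the motifs were within 50 bp of each other in 292 regions (23.1%), against 24.2% in the Late naive regions without SOX17 (log2 odds ratio -0.09, -0.40 to 0.21, adjusted p = 0.681, Fisher's exact test). Within bins of width this turned to 0.42 (0.09 to 0.75). Against facultative heterochromatin, with 28.5%, it was -0.41 (-0.66 to -0.16, adjusted p = 0.00232, Fisher's exact test) and 0.0 within bins of width (-0.27 to 0.27). Median GATA6 signal at 96 h per kb was 5.44 in the 17 regions with neither motif and 4.52 in the 1266 with both. Every region was a called GATA6 binding region, so GATA6 signal without a motif follows from the choice, and these values are description.

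The regions gained GATA6 when Oct4 was knocked down. In this experiment of the study, cells of clone G6.3 received Oct4 or control siRNA together with Dox and were collected at 48 h, and the authors classed a region as changed at a false discovery rate under 0.1 and an absolute log2 fold change over 0.5. GATA6 binding was raised in 696 of the 1541 regions (45.2%, 42.7 to 47.7), where over all GATA6 regions the share was 8.57%. It was lowered in 8 (0.519%, 0.263 to 1.02), where over all regions it was 6.25%. In the Late naive regions without SOX17 it was raised in 95 of 1171 (8.11%), a log2 odds ratio of 3.22 (2.89 to 3.56, adjusted p = 2.19e-107, Fisher's exact test) with the same direction on 20 of 20 chromosomes. In facultative heterochromatin it was raised in 673 of 2044 (32.9%), a log2 odds ratio of 0.75 (0.55 to 0.94, adjusted p = 5.23e-13, Fisher's exact test) with the same direction on 19. Within bins of width these were 2.76 (2.41 to 3.10) and 0.34 (0.13 to 0.55). Within 10 bins of GATA6 signal in the control, chosen after seeing the data, they were 3.01 and 0.72. Median GATA6 signal at 48 h was 1.62 with control siRNA (quartiles 0.914 to 2.84) and 3.04 with Oct4 siRNA (1.85 to 4.98). The level with control siRNA was above the 0.864 of the untransfected time course at 48 h. Over all GATA6 regions it was higher too, at 1.64 against 1.13. Per the methods, the ChIP-seq libraries of the knockdown were sequenced paired-end and the others single-end. The cause of the higher level was not tested.

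The signal moved up almost throughout, also where no change was called. The ratio of Oct4 siRNA over control had a median of 1.89 for GATA6 (quartiles 1.35 to 2.57) and was above 1 in 90.5% of regions, against a median of 0.997 and a share of 49.8% over all GATA6 regions. SOX17 signal went from a median of 1.05 to 2.71, with a ratio of 2.65 (1.89 to 3.59) that was above 1 in 98.2% of regions. Over all regions SOX17 signal was higher too, with a median ratio of 1.56 that was above 1 in 82.0%. In the Late naive regions without SOX17 the median ratios were 1.44 for GATA6 and 2.04 for SOX17, so that far fewer calls there came with a smaller but like-directed shift. The log2 ratios of GATA6 and SOX17 had a Spearman correlation of 0.71 across the 1541 regions, which share the libraries. Raised regions were wider than unchanged ones, with a median of 649.5 bp (696 regions) against 507 bp (837 regions). They had higher GATA6 signal in XEN cells, 5.02 against 2.54, not divided by width, and at 96 h per kb, 5.21 against 4.13. Over the whole region, more of them held a SOX17 motif, 90.2% (87.8 to 92.2) against 85.2% (82.6 to 87.4). In the window of 100 bp to each side of the summit, the shares were 69.3% (65.7 to 72.6) and 64.9% (61.6 to 68.0), with overlapping intervals. The share of raised regions went from 26.9% in the narrowest of 4 width classes of like size (210 to 424 bp) through 39.5% and 50.3% to 64.1% in the widest (778 to 2724 bp). Over the same width classes it was 4.64% to 18.5% in the Late naive regions without SOX17, 20.5% to 58.4% in facultative heterochromatin and 4.94% to 11.6% over all regions. A wider region collects more reads, and the part of counting depth in these shares was not tested.

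**Figure D4:**
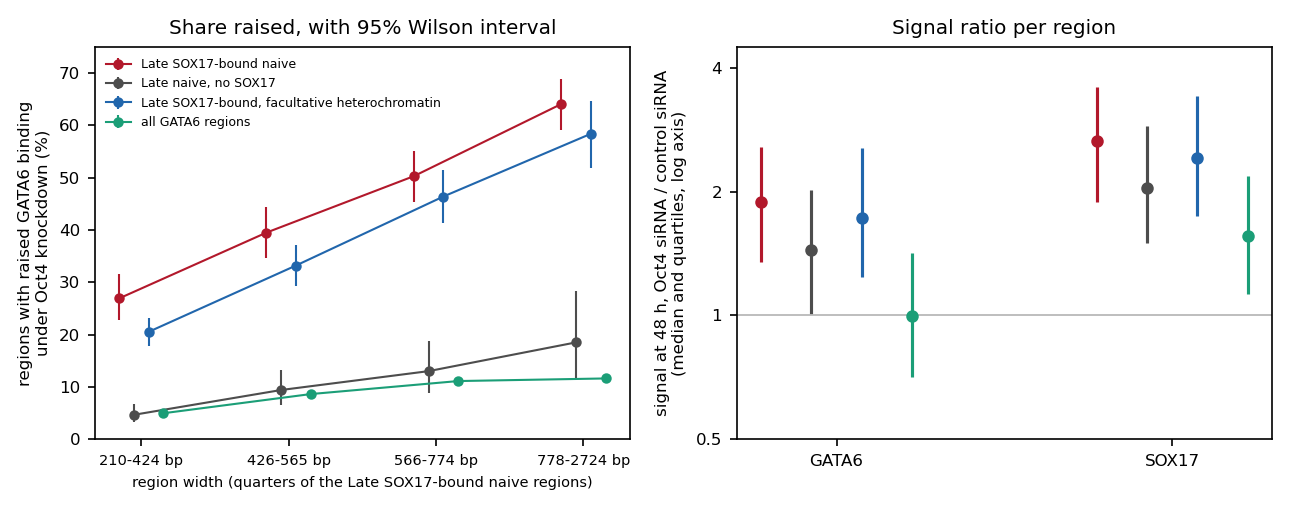
Left, share of regions with raised GATA6 binding after Oct4 knockdown (%) in 4 classes of region width that split the Late SOX17-bound naive regions into 4 sets of like size, with 95% Wilson intervals. Right, ratio of signal with Oct4 siRNA over control siRNA at 48 h on a log axis, with points for medians and bars for quartiles over regions in the same colours. The share rose from 26.9% to 64.1% with width in the Late SOX17-bound naive regions and stayed at 18.5% or lower in the Late naive regions without SOX17, and the median GATA6 ratios were 1.89 and 1.44.

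Summits of the regions lay mostly away from promoters. They were in introns in 53.7%, between genes in 38.6%, in exons in 3.05% and within 1 kb of a transcript start in 4.67% (72 regions, 3.73 to 5.84). The promoter share was 5.98% in the Late naive regions without SOX17 (log2 odds ratio -0.38, -0.86 to 0.11, adjusted p = 0.183, Fisher's exact test) and 5.92% in facultative heterochromatin (-0.36, -0.79 to 0.07, adjusted p = 0.163, Fisher's exact test), differences that did not pass the test.

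Genes of PrE with such a region near their start were looked up in a list of 33, beside 10 pluripotency genes. A region lay within 50 kb of the start of 10 of the 33 PrE genes and of 0 of the 10 pluripotency genes (Nanog, Esrrb, Tfcp2l1, Klf4, Klf2, Prdm14, Pou5f1, Sox2, Zfp42 and Fgf4). Counted gene by gene, 19 of 407 GATA6 regions within 100 kb of the PrE genes were Late SOX17-bound naive regions (4.67%), against 0 of 98 for the pluripotency genes and 3.63% of all GATA6 regions. The share near PrE genes was thus close to that of the whole table. Only Late regions without a PTF peak were allowed, so the absence near pluripotency genes may follow from the choice. The share of all genes with a Late SOX17-bound naive region within 50 kb was not counted, so the 10 of 33 has no background beside it. Gata6, Gata4 and Sox17 themselves had their nearest such region at 64.1, 66.1 and 154 kb. Among transcription factors, Foxa2 had one within 50 kb, 1 of 6 listed. Of the basement membrane genes Nid1 and Lama1 did (2 of 8), of the endocytic receptor group Cubn and Lrp2 (2 of 4), of receptors and signalling Pdgfra and Bmp2 (2 of 7), and of yolk sac products Ttr, Srgn and Rbp4 (3 of 8).

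The region nearest to a listed gene had its summit 12 bp upstream of the start of Ttr, which encodes the thyroid hormone and retinol carrier transthyretin. ATAC signal there was 0.0562 at d0, 0.0763 at 24 h, 0.114 at 48 h, 0.437 at 96 h and 0.631 in XEN cells, a 7.77-fold rise by 96 h. GATA6 signal was 0.376 at 8 h, 0.813 at 48 h, 5.18 at 96 h and 7.65 in XEN cells. With Oct4 siRNA it was 2.67 against 1.14 in the control. Most of the gain at the Ttr promoter thus came between 48 and 96 h, and the level was higher still in XEN cells. In an intron of Srgn, the gene of the proteoglycan serglycin, a region opened earlier, with ATAC signal of 0.0512 at d0, 0.0886 at 24 h, 0.299 at 48 h and 0.363 at 96 h. Its GATA6 signal was 7.37 at 96 h but 3.54 in XEN cells, and its SOX17 signal 9.62 and 2.48, so that the time course exceeded XEN cells.

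Foxa2 encodes a transcription factor of the endoderm. The region 20.4 kb from the start of Foxa2, at chr2:148026255-148026910, had GATA6 signal of 0.792 at 48 h, 3.89 at 96 h and 9.56 in XEN cells and SOX17 signal of 1.03, 6.53 and 12.1. Its ratio under Oct4 siRNA was 3.32, the highest of the 10 regions. The region was classed as raised and was higher in XEN cells than at 96 h.

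Of the basement membrane genes, the Nid1 region shown above, at chr13:13432813-13433177, had ATAC signal of 0.0195 at d0, 0.0246 at 24 h, 0.158 at 48 h and 0.213 at 96 h, a 10.9-fold rise, and 0.0630 in XEN cells. The region 28.4 kb from the start of the laminin gene Lama1, at chr17:67668451-67669330, rose less, from 0.0753 at d0 to 0.210 at 96 h (2.79-fold), while its GATA6 signal went from 3.55 at 96 h to 10.1 in XEN cells. Cubn and Lrp2 encode the endocytic receptors cubilin and megalin. The region 35.4 kb from the start of Cubn, in an intron of Trdmt1, had ATAC signal of 0.0559 at d0, 0.154 at 48 h and 0.318 at 96 h. The region in an intron of Lrp2 had ATAC signal of 0.0165 at d0, 0.0157 at 48 h and 0.0539 at 96 h, a 3.27-fold rise, with GATA6 signal of 1.13 at 96 h and 0.370 in XEN cells. It was only 271 bp wide, which lowers a signal not divided by width, and had no GATA6 motif.

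The signalling genes and the last carrier gene completed the 10. The region 35.9 kb from the start of Bmp2, a growth factor gene, reached its ATAC level by 48 h, with 0.0364 at d0, 0.226 at 48 h and 0.220 at 96 h. The region 41.9 kb from the start of the retinol carrier gene Rbp4, in an intron of Pde6c, had GATA6 signal of 5.68 at 96 h and 4.15 in XEN cells and SOX17 signal of 5.99 and 1.54. The region 49951 bp from the start of Pdgfra, a receptor gene of the PrE, had no SOX17 motif and SOX17 signal of 1.38 at 96 h. Its SOX17 signal with Oct4 siRNA was 0.416 against 0.649 in the control, a ratio of 0.641. In all 10 regions ATAC signal was higher at 96 h than at d0, and 4 of them (Ttr, Srgn, Foxa2 and Cubn) were classed as raised under Oct4 knockdown. Among all 1541 regions, 45.2% were raised and 91.2% had at least 2 times the d0 ATAC signal at 96 h. Over all GATA6 regions these shares were 8.57% and 41.2%. Neither count thus set the 10 regions apart from the other Late SOX17-bound naive regions. Distance to a gene start does not show that a region acts on that gene.

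**Figure D5:**
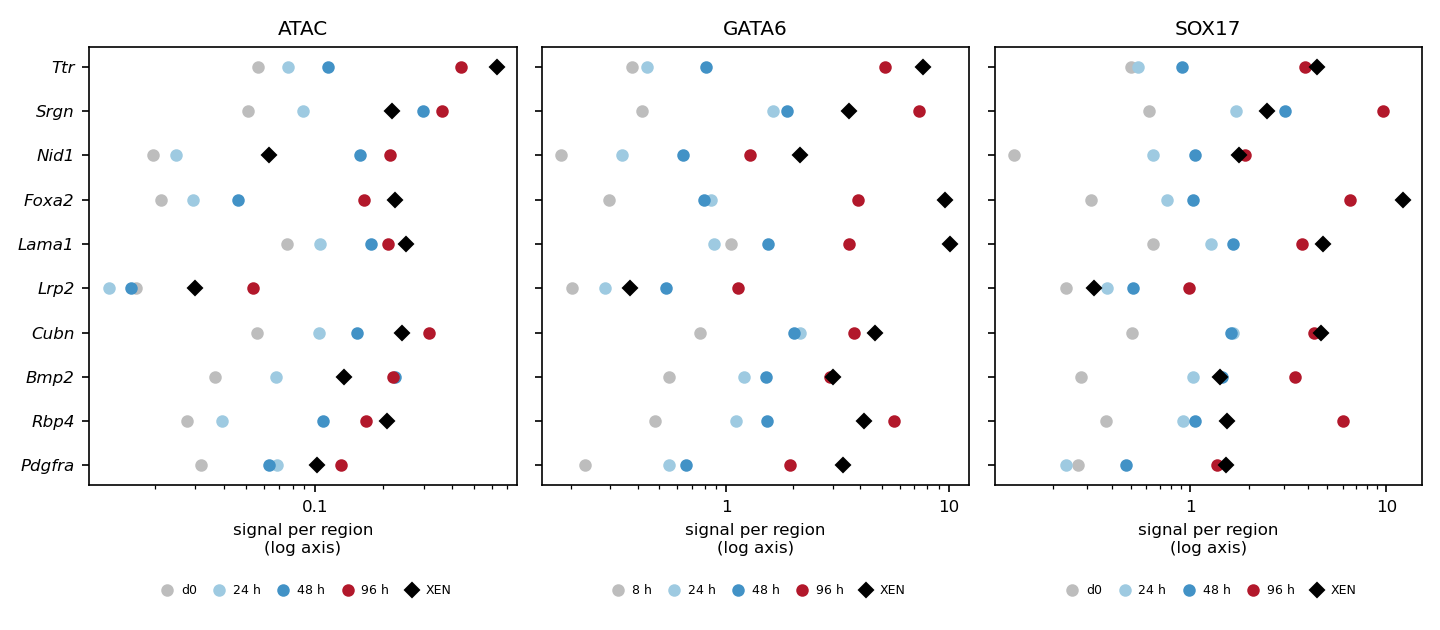
ATAC, GATA6 and SOX17 signal, on log axes, of the region nearest to each of the 10 listed PrE genes with a Late SOX17-bound naive region within 50 kb, ordered by distance from 12 bp (Ttr) to 49951 bp (Pdgfra), with points for time points of Dox and diamonds for XEN cells. Signals at 96 h were above those at d0 or 8 h in every row, while XEN cells lay above 96 h for Ttr, Foxa2 and Lama1 and below it for Srgn and Lrp2 in all 3 panels.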

How the data were processed

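The series holds 18 MNase-seq libraries in 6 groups of 3, of which the table used here carries no value. No library therefore entered a test, and the table gives no depth per library. The submitters' processing notes name mm10, bcl2fastq, cutadapt, Bowtie2 and SAMtools. Per the methods of the study, the authors merged replicates for the MACS2 calls of GATA6 and retained a peak only if every replicate had it. The deposited signals, scores in the sense of normalized values, were made by the authors as reads per region corrected for library size, with 1 value per time point. How replicates were combined for this value is not given in the sources used here. The deposited histone and DNase scores are public data, also divided by width. The deposited motif scores are log-odds scores of FIMO with JASPAR matrices. GATA6 clusters come from k-means, SOX17 and PTF classes from called peaks, and the Oct4 class from DESeq2 run by the authors. Of the 105 columns, 10 signal columns and 12 motif group columns were not used.

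Regions were selected on the deposited classes. The members, compared classes and gene lists were chosen with earlier results of these data known. Widths are end minus start, and summits were annotated with GENCODE M21, a promoter being within 1 kb of a transcript start. Motif matrices were recovered from the deposited scores and sequences (largest residual 5.07e-05 or less) and used to scan windows of 100 bp to each side of the summit and windows of that size 3 kb away, and a rescan of whole regions matched the deposited presence of a motif in 99.6%. Classes were compared by two-sided Fisher's exact tests with Benjamini-Hochberg adjustment over 21 tests and a threshold of 0.05, and 12 means by differences with counting errors. Shares carry 95% Wilson intervals. The scripts were tested on simulated data. A few named items, among them 1 listed gene, are not reported here. Named regions were those with the highest motif scores (3 for each factor), those with the largest summed score of close motifs, the 5 largest and 3 smallest ATAC gains, the 3 widest and the nearest to each listed gene. Alternatives were odds ratios within 10 bins of width (Mantel-Haenszel), closed regions, 1 region per 50 kb, a motif score of at least 9 and mean scores, and, chosen after seeing the data, the summit window, 10 bins of control signal and leaving out chromosome X. Tests were run in scipy 1.17.1 and figures drawn in matplotlib 3.10.9, under Python 3.11.15 with pysam 0.24.0, pandas 2.3.3 and numpy 2.4.6.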

Additional observations from a re-analysis of the deposited data

How the results depend on the processing

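No paired analysis was possible because the columns used hold no value of a library, and for the same reason no replicate could be left out. Of the 90 alternatives for 21 shares, 58 planned and 9 added ones kept direction and call. Of the 38 alternatives for 12 means, 31 stayed within the 95% interval of the main difference. The SOX17 motif share and the share raised under Oct4 knockdown kept direction and call in all of theirs, against both classes. Within 10 bins of width, against the Late naive regions without SOX17, log2 odds ratios were -0.62 for the GATA6 motif (main value 0.01), -0.07 for OCT4:SOX2, 0.09 for ESRRB, -0.21 for a GATA6 motif within 50 bp of the summit, 0.42 for close motifs, 0.03 for regions not closed at d0 (main value -0.02) and -0.04 for lowered binding. Against facultative heterochromatin they were -0.13 for ESRRB, -0.10 for a SOX17 motif within 50 bp of the summit and 0.0 for close motifs. The difference in best GATA6 motif score moved to -0.37 against the naive regions, and GATA6 motifs per kb to -0.89 and, against facultative heterochromatin, to 0.49, with SOX17 motifs per kb at 0.37. With 1 region per 50 kb (1423 regions left), the GATA6 motif was at -0.10 and lowered binding at -0.37 against the naive regions. With a motif score of at least 9 the values against the naive regions were -0.20 for GATA6, 0.15 for OCT4:SOX2, 0.42 for ESRRB, 0.27 for a SOX17 motif within 50 bp of the summit and 0.18 for close motifs, and -0.32 for close motifs against facultative heterochromatin. With mean motif scores the differences were 0.01 for GATA6 and -0.08 for SOX17 against facultative heterochromatin, and 0.21 for SOX17 against the naive regions. In alternatives chosen after seeing the data, the summit window gave -0.47 for GATA6, -0.04 for OCT4:SOX2 and 0.02 for ESRRB against the naive regions and 0.22 for GATA6 against facultative heterochromatin, and bins of control signal gave -2.10 (-3.71 to -0.50) for lowered binding against the naive regions, which rests on 8 and 6 regions. The cause of these changes was not tested beyond what each alternative holds fixed. The table gives no depth per library, so its part in these counts was not tested.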

Other observations

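Chromosome X held 151 of the 1541 regions, 12.2% of its GATA6 regions, where the other chromosomes had 2.28% to 4.24%. The naive state as a whole had 9.30% of its regions on X (8.67 to 9.98), and the other histone states 0.162% to 3.48%. Median input signal at d0 was 0.228 in the regions on X and 0.364 in those on autosomes, and the H3K27me3 signal that helped to define the state was 0.363 and 0.438. The part of copy number and read depth in the naive class was not tested. GATA6 signal at 96 h had a median of 1.88 on X and 2.59 on autosomes, and binding was raised under Oct4 knockdown in 41.7% and 45.5%.

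The 8 regions with lowered GATA6 binding under Oct4 knockdown differed in GATA6 signal from raised and unchanged regions at 48 h and in XEN cells. Their median GATA6 signal at 48 h was 1.80, against 0.936 in the 696 raised and 0.811 in the 837 unchanged regions. At 96 h it was 1.97, against 3.36 and 2.08, and per kb 3.89, against 5.21 and 4.13, so that it was near that of unchanged regions. GATA6 signal in XEN cells was 0.674, against 5.02 and 2.54. Their median width was 502 bp, against 649.5 and 507 bp. Median ATAC signal in the lowered regions was 0.0259 at d0, 0.311 at 48 h, 0.240 at 96 h and 0.0982 in XEN cells. OCT4 signal at 48 h was 0.860, against 0.537 in the raised and 0.503 in the unchanged regions. GATA6 signal at 48 h went from a median of 4.70 with control siRNA to 2.30 with Oct4 siRNA. These regions were named after their class was seen, and the one nearest a gene lay 12.3 kb from the start of Minar1.

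A few regions bound GATA6 at 96 h without any gain in ATAC signal. In an intron of Rnf170, at chr8:26138099-26138486, ATAC signal was 0.0266 at d0, 0.0233 at 48 h, 0.0181 at 96 h and 0.113 in XEN cells, while GATA6 signal went from 0.351 at 48 h to 1.09 at 96 h and 4.35 in XEN cells. The regions at chrX:136267749-136268067, 2.34 kb from the start of Bex3, and at chr10:56456161-56456541, 79.1 kb from the start of the connexin gene Gja1, had ATAC signal of 0.0357 and 0.0232 at 96 h and of 0.110 and 0.107 in XEN cells. All 3 were therefore more open in XEN cells than at any time of Dox. The widest region, at chr1:151129259-151131983, held 6 GATA6 and 7 SOX17 motifs and had ATAC signal of 0.131 at d0, 0.602 at 96 h and 0.622 in XEN cells.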
